A study of Mus musculus with 24 samples.

Results

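Loss of the zinc finger transcription factor E4F1 was measured in mouse embryonic fibroblasts that lacked p53 and carried an activated Ha-Ras oncogene. The genes described are those with a symbol and an Entrez ID in any of the 3 tables the authors deposited for this contrast, 1 row per Entrez ID: 3397 genes, of 3667 in the deposited tables of the whole series. All of the 3397 were found on the arrays. These genes were listed by the authors because they differed between knockout and control in this same contrast, so that their differences describe the contrast and are no test of it. The authors' limma table held 1846 of them, and the other 1551 came from the lists made with SAM, a permutation method, at false discovery rates of 1% and 5%. In the authors' deposited limma table the smallest listed change was 0.56 on the log2 scale and the largest adjusted p was 0.0499, and the largest change of a probe in none of the tables was 2.84.

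The cells came from 13.5-day embryos of mixed C57BL/6 and 129Sv/J background. All cultures were p53-/-, had been transformed with a retrovirus encoding Ha-RasV12, and received a self-excising retrovirus encoding the CRE recombinase 3 days before RNA was taken. Control cells were E4F1 +/flox before CRE and are labelled E4F1 +/-, so that the controls also carried CRE and 1 working allele. Knockout cells were E4F1 -/flox before CRE and are labelled E4F1 -/-. There were 3 biological replicates per group, A, B and C. The knockout and the control of a letter shared a two-colour array, and each pair was hybridised on 2 arrays with the Cy3 and Cy5 dyes swapped, which makes 12 samples on 6 arrays. The same design in p53-/- cells without Ha-RasV12 served for comparison. A change in the make-up of a culture cannot be told apart here from a change within its cells.

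E4F1 was first described as a cellular factor that the adenovirus protein E1A acts on, and it binds DNA at sites related to those of the ATF and CREB family. It is also known as an E3 ubiquitin ligase for p53, and in mouse cells it is tied to genes of mitochondrial pyruvate oxidation and to the checkpoint kinase gene Chek1. Pyruvate enters mitochondria through the carrier made of MPC1 and MPC2 and is turned into acetyl-CoA by the pyruvate dehydrogenase complex, of which Dlat encodes the E2 subunit. Activated Ras drives growth through the RAF, MEK and ERK kinases, and without p53 the cells lack a main brake on that signal.

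Among the Ha-RasV12 cultures control replicate A stood apart, while controls B and C lay close together. Over 37176 probes with a mean log2 signal above 8 in the Ha-RasV12 samples, control A differed from controls B and C by root mean square log2 differences of 0.98 and 1.00. It was no farther from its own knockout (0.89) or from knockout B (0.80). Controls B and C lay 0.24 apart, less than any pair of knockout cultures (0.57, 0.68 and 0.74) or any pair of p53-/- cultures of 1 group (0.31 to 0.44). Measured within a dye, controls B and C differed by 0.29 and 0.32, in the range of the 2 dye-swapped measurements of a single Ha-RasV12 culture (0.25 to 0.35). The B minus C differences in the Cy3 and Cy5 samples correlated at 0.26 across probes, against 0.92 for A minus B. These values cannot settle whether controls B and C were separate cultures. Controls B and C were kept as 2 samples, as labelled. Counting them as 1 sample is given beside the counts. The knockout lay 0.89, 0.85 and 0.62 from its own control in replicates A, B and C, against 0.31, 0.24 and 0.24 in p53-/- cells.

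**Figure D1:**
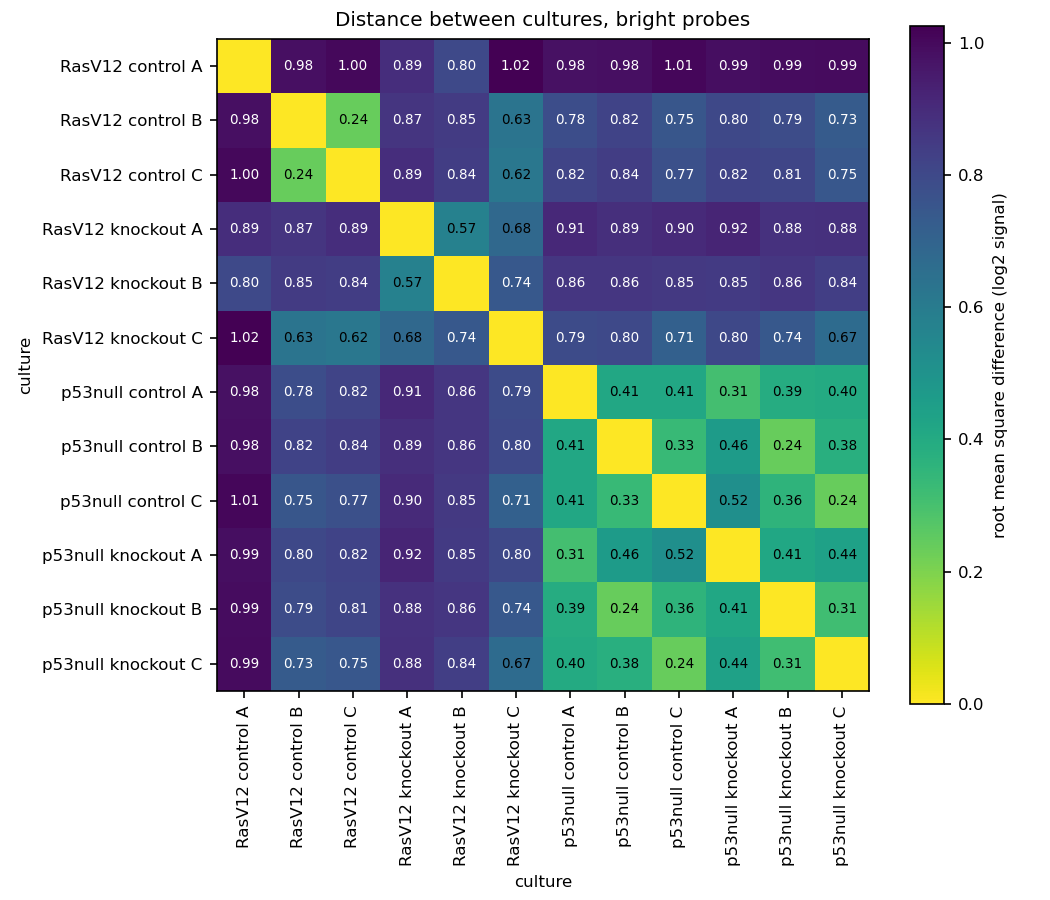
Root mean square difference in log2 signal between each pair of the 12 cultures, over bright probes, each culture being the mean of its 2 dye-swapped samples; rows and columns are cultures and the printed number is the distance. Ha-RasV12 controls B and C lie 0.24 apart, and control A lies 0.98 and 1.00 from them.

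Knockout-over-control ratios of replicates A and B hardly tracked each other. Across the same 37176 probes, which share their arrays and are not independent, ratios correlated at 0.06 between A and B, 0.34 between A and C and 0.47 between B and C. The corresponding values in p53-/- cells were 0.18, 0.44 and 0.56. Signals above the 99th percentile of 5000 random-sequence control spots were taken as above background, which held for 32.4% to 38.8% of probes in each Ha-RasV12 sample.

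The fibroblast label was checked against marker genes. All 6 fibroblast markers that could be matched, of 10 listed, were above background in both groups, and their summed linear signal was 82355 to 118246 in the controls and 46442 to 65015 in the knockouts. Of 7 macrophage and leukocyte markers 2 could be matched, with sums of 175 to 343 in the controls and 169 to 275 in the knockouts. The epithelial list had 3 of 6 members matched and stood at 18982 in control A against 2682 to 3130 in the other controls and 1766 to 2971 in the knockouts. Most of the control A sum was Krt19, at a log2 signal of 14.18, while Epcam and Krt7 had positive ratios in all 3 replicates. The 2 matched endothelial markers gave 2276 to 5047 in the controls and 1278 to 2268 in the knockouts. The skeletal muscle sum (2 matched) was 150 to 282 and 278 to 594, and the only matched cartilage marker, Sox9, gave 98 to 568 and 388 to 1711. The 3 matched adipocyte markers gave 13611 in control A, against 3310 to 3332 in the other controls and 2964 to 4637 in the knockouts. Signal from marker genes that could not be matched was not analysed here, and the part of these differences in the results below was not tested.

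With the 2 arrays of a replicate averaged and the 3 replicates as the sample, limma called 280 of 132488 probes at a Benjamini-Hochberg adjusted p of 0.05 or less, which is 0.211% of probes. Of these, 193 were higher (0.146% of probes) and 87 lower (0.0657%) in knockout cells. Read at the brightest probe of each gene, 76 of 4414 matched genes were called (1.72%), 54 higher and 22 lower. Every one of the 76 is among the 3397 listed genes and changed at least 2-fold. The levels of knockout and control did not overlap for 1636 of the 4414 matched genes, a share of 37.1%, and for 9.01% of all probes. Of the matched genes 67.3% had the same sign in all 3 replicates, against 29.6% of probes, and 41.8% were in the authors' limma table. An unadjusted p under 0.05 was given to 2444 of the 4414, and 1811 were higher and 1160 lower in all 3 replicates, so that counts of this kind in the gene lists below have a high background. The matched genes were mostly named through the authors' lists, so that their shares run above those of all probes. All 280 called probes are in the authors' deposited limma table of 4703.

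The number of calls depended on the replicates. Without replicate A, 481 matched genes were called and all 76 were among them. Without replicate B, 124 were called and 60 of the 76 were among them. Without replicate C no gene and no probe passed, with 7021 probes at an unadjusted p under 0.05. Without pairing cultures by their replicate letter 70 were called, 49 of them among the 76, and of the genes named below Cdkn1a, Il33, Nrn1, Peg3, Sox9 and Taz lost the call. With controls B and C counted once, 7 of the 76 kept the call: Cxcl12, Hoxb6, Hoxd10, Igfbp7, Ndufs5, its pseudogene Ndufs5-ps and Ucp1. When the 6 arrays were treated as independent, limma called 4564 probes, of which 4480 are in the authors' table (95.3% of theirs and 98.2% of these).

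E4f1 itself was lower in every knockout culture. At its brightest probe the log2 signal was 8.71, 8.23 and 7.95 in controls A, B and C and 6.74, 6.08 and 6.09 in the knockouts. The groups did not overlap, and no knockout sample was well above background. The log2 ratios were -1.96, -2.15 and -1.87 (mean -1.99, SE 0.17, n = 3, limma adjusted p = 0.0295), or at least 2.38-fold lower given the background. A second E4f1 probe was called with a mean of -2.24, and the least changed of its 6 probes, near background in both groups, stood at -0.10. Which probes lie in deleted exons was not examined. The drop in p53-/- cells was -1.28, and the difference between backgrounds was not called (-0.72, SE 0.23, adjusted p = 0.359). Of 3 Trp53 probes, 2 were not well above background in either group and the other gave -0.23, -1.29 and -1.10 (adjusted p = 0.397). Hras was not matched to a probe, so that the transgene was not checked.

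**Figure D2:**
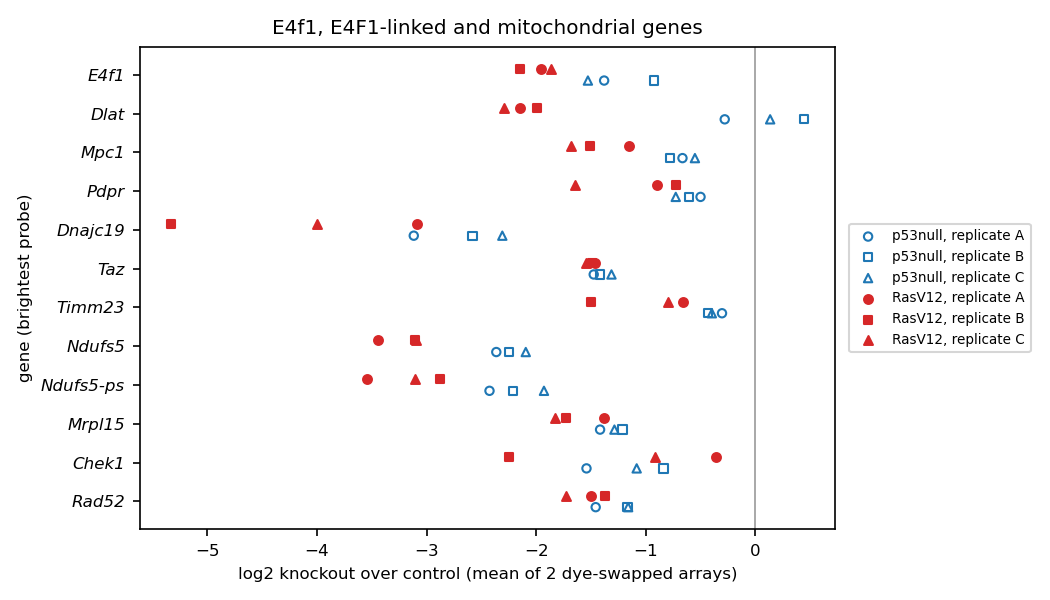
Log2 knockout-over-control ratio (x axis) of E4f1, E4F1-linked and mitochondrial genes and Rad52 (y axis), with 1 point per replicate, filled red for Ha-RasV12 and open blue for p53-/- cells. The genes were chosen with these results known, and mitochondrial genes that rose are not shown. That all 36 Ha-RasV12 points lie below 0 follows from this choice. The Chek1 points, at its brightest probe, run from -2.25 to -0.36.

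Several mitochondrial genes fell in Ha-RasV12 knockout cells, and Dnajc19, Ndufs5 and Taz were also called lower in p53-/- cells. Dnajc19, the gene of a J-domain co-chaperone at the import motor of the inner membrane, had log2 signals of 12.59, 13.28 and 13.09 in controls and 9.50, 7.96 and 9.09 in knockouts. The lowest control lay above the highest knockout by a wide margin, and replicate B fell furthest. Dnajc19 fell by 4.14 on the log2 scale (17.6-fold, SE 0.41, adjusted p = 0.0368), against -2.67 in p53-/- cells. Only 1 of its 3 probes was called. Ndufs5, a subunit of respiratory complex I, went from 13.33, 13.15 and 13.18 in controls to 9.89, 10.04 and 10.09 in knockouts. Its replicates hardly differed, and it fell 9.28-fold (-3.21, SE 0.18, adjusted p = 0.0159), with all 3 probes called. Probes of the pseudogene Ndufs5-ps gave -3.17 and can share target sequence with Ndufs5. Taz encodes tafazzin, the enzyme that remodels the inner membrane lipid cardiolipin. The gene fell 2.83-fold (ratios -1.47, -1.49 and -1.54, adjusted p = 0.0497) and by 1.40 on the log2 scale in p53-/- cells. Only 1 of its 12 probes was called, and the probe means ran from -1.995 to -0.48.

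The E4F1-linked list covers genes tied to E4F1 in earlier work on E4F1-deficient cells. Part of that work may rest on the present arrays, and the direction of the list is therefore no independent evidence. Of its 6 members 4 were matched, and 1, Dlat, was called, beside 1.72% of all matched genes. All 4 were lower in every replicate at their brightest probe, beside 1160 of 4414 matched genes. Dlat had log2 signals of 10.05, 10.24 and 9.91 in controls and 7.90, 8.25 and 7.62 in knockouts, with no overlap. It fell 4.42-fold (ratios -2.15, -1.99 and -2.29, SE 0.17, adjusted p = 0.0239), and 6 of its 9 probes were called. Mpc1, a subunit of the pyruvate carrier, had ratios of -1.15, -1.51 and -1.69 and missed the threshold (adjusted p = 0.0788). Pdpr, which regulates the phosphatase that reactivates the complex, had -0.90, -0.73 and -1.65 (adjusted p = 0.245). Chek1 had -0.36, -2.25 and -0.91 (adjusted p = 0.436), a spread that rested on replicate B, while its p53-/- value was -1.15 (adjusted p = 0.044). Among the other Chek1 probes replicate A gave 0.05, 0.21 and 0.14 at some and -0.22 and -0.12 at the rest. All 4 matched genes are in the authors' deposited limma table, Chek1 through 1 of its 6 probes.

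The promoters of 5 of these genes are shown because E4F1 is known to bind sites that hold the core TGACG. They come from RefSeq on GRCm38.p6, run 5′ to 3′ on the gene's strand from 250 bases before to 50 bases after the start of transcription, and capitals mark TGACG or its reverse complement CGTCA, which may overlap.
Dlat (chr9:50659731-50660030, minus strand): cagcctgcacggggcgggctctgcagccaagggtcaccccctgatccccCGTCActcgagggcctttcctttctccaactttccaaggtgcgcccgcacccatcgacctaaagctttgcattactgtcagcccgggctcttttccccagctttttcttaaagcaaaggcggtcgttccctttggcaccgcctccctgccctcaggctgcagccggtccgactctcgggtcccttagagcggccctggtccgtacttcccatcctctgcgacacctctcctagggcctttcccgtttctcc
Ndufs5 (chr4:123718137-123718436, minus strand): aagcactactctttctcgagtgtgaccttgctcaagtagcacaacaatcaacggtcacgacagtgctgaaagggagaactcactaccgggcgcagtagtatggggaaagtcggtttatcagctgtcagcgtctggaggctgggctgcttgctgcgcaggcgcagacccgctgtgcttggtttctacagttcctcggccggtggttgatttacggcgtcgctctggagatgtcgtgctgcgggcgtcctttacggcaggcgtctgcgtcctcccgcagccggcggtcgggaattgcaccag
Dnajc19 (chr3:34081305-34081604, minus strand): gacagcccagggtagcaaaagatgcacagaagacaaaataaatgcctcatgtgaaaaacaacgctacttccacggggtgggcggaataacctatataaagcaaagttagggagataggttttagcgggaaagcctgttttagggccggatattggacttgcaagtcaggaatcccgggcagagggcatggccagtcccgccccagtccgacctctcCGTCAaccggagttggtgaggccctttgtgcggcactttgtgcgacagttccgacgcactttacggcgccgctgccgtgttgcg
Taz (chrX:74282468-74282767, plus strand): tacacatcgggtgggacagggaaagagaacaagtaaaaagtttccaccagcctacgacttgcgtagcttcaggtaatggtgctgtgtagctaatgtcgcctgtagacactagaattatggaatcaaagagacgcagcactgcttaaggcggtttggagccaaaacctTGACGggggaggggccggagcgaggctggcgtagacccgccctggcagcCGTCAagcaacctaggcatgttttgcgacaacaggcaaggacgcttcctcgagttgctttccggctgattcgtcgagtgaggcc
Pdpr (chr8:111094495-111094794, plus strand): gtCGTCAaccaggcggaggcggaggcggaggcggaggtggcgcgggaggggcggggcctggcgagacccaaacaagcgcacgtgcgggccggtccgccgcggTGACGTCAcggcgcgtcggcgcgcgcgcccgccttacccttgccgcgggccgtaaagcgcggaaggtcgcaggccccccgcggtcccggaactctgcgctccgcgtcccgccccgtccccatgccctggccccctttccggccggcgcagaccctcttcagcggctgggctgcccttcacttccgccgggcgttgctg
The 5 letters, searched on both strands, are present in 20.8% of 32851 such windows. The Dlat and Dnajc19 windows held them 1 time each, the Taz window 2 times and the Pdpr window 3 times, while the Ndufs5 window did not hold them. The longer TGACGT or ACGTCA, present in 7.51% of windows, was found in Pdpr alone among the 5.

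Other mitochondrial genes moved less, and the calls in these lists stand beside 1.72% of all matched genes called. Of 8 matched genes of pyruvate dehydrogenase and pyruvate import, Dlat was the only one called. Pdk1, Pdk3 and Pdk4, kinases that switch the complex off, had mean log2 ratios of 0.59, 0.78 and 0.58, each positive in all 3 replicates and none called. The respiratory chain list had 25 matched members and 2 calls, Ndufs5 and its pseudogene, with a list median of 0.02 beside 0.23 for all matched genes. Of 11 genes of inner membrane import and cardiolipin 2 were called, Dnajc19 and Taz, and the median was -0.75. Timm23, the import channel, had ratios of -0.66, -1.50 and -0.80 (adjusted p = 0.276). No mitochondrial ribosome gene of 14 was called, and 10 had an unadjusted p under 0.05 in the limma fit (2444 of 4414 over all matched genes). Of the 14, 11 were lower in all 3 replicates (1160 of 4414 over all matched genes), led by Mrpl15 (-1.38, -1.73 and -1.83, adjusted p = 0.0501).

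Among the 12 steepest falls were further genes that were lower in both backgrounds. Zfp945, a zinc finger gene, had log2 signals of 9.19, 8.85 and 8.55 in controls and 6.26, 5.20 and 5.51 in knockouts, where no sample was well above background. It was at least 3.53-fold lower (adjusted p = 0.0159). Ipo8, a nuclear import receptor, fell by 2.33 (SE 0.18, adjusted p = 0.0222), and Psmb6, a catalytic subunit of the constitutive proteasome, by 2.23 (SE 0.19, adjusted p = 0.0293). Their p53-/- values were -2.80, -1.46 and -1.24, and for none of the 3 was the difference between backgrounds called (adjusted p = 0.688, 0.17 and 0.143). Dnase1l2, a DNase gene, rose in both, by 1.86 in Ha-RasV12 cells and 1.90 in p53-/- cells. Rad52, a recombination gene, had -1.50, -1.37 and -1.73 and stood just outside the threshold at its brightest probe (adjusted p = 0.0547).

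**Figure D3:**
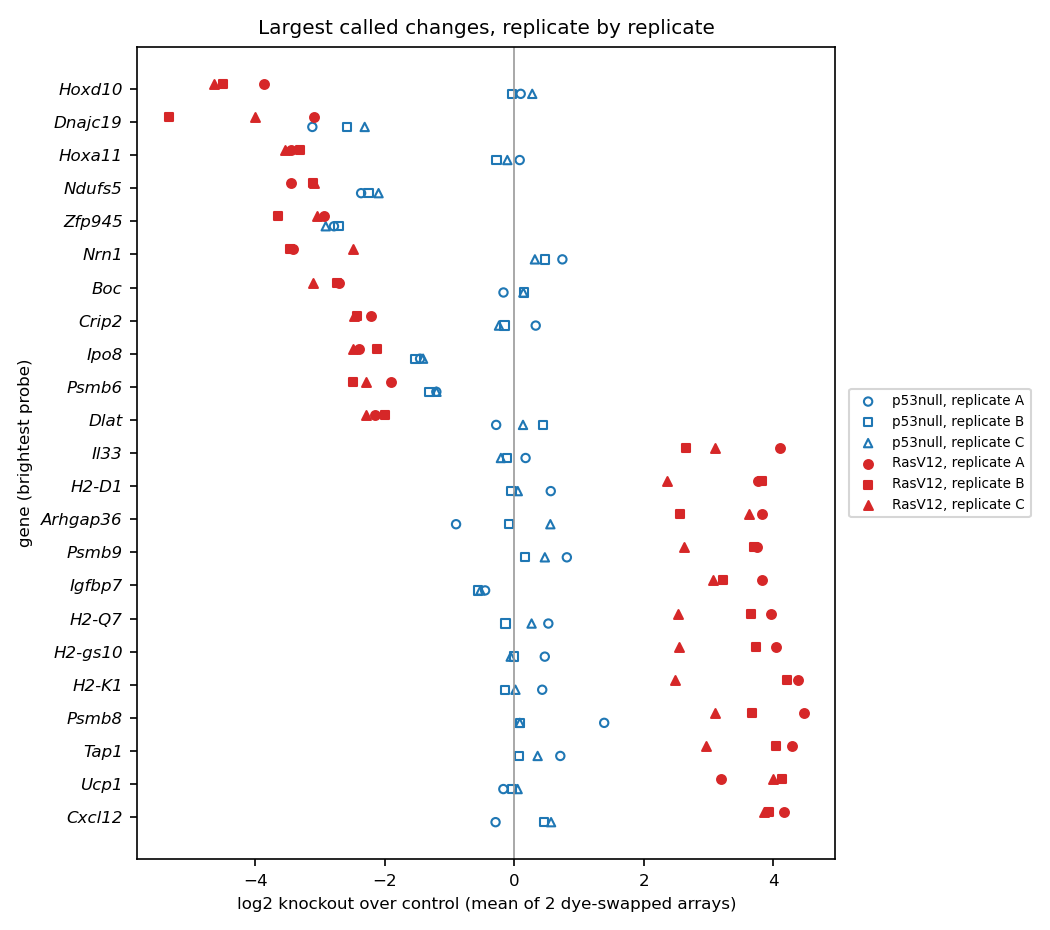
Log2 knockout-over-control ratio (x axis) of the largest falls and the 12 largest rises among called genes that are reported (y axis), with 1 point per replicate, filled red for Ha-RasV12 and open blue for p53-/- cells. The Ha-RasV12 points of each gene lie on 1 side of 0, and the p53-/- points of the 12 rises lie between -0.90 and 1.39.

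Class I antigen presentation held more called genes than any other list, and the called genes were all higher. Peptides cut by the immunoproteasome enter the endoplasmic reticulum through the TAP1 and TAP2 transporter and are loaded on class I heavy chains paired with beta-2-microglobulin. Of 15 matched genes of this route 10 were called higher and 0 lower, beside 1.72% of all matched genes, and the list median was 2.85 beside 0.23. The immunoproteasome gene Psmb8 had log2 signals of 7.34, 6.99 and 6.88 in controls and 11.81, 10.66 and 9.98 in knockouts. The groups stood far apart, and it rose 13.4-fold (SE 0.28, adjusted p = 0.0222), with Psmb9 at 10.3-fold (adjusted p = 0.0239). Tap1 was at 6.74, 6.60 and 6.63 in controls, where it was not well above background, and at 11.02, 10.64 and 9.58 in knockouts, at least 9.48-fold higher (adjusted p = 0.0226). Tap2 was at least 3.72-fold higher (adjusted p = 0.016).

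The heavy chain gene H2-K1 went from 10.02, 10.06 and 10.22 in controls to 14.41, 14.26 and 12.71 in knockouts. It rose 12.9-fold (SE 0.39 on the log2 scale, adjusted p = 0.0428), least in replicate C. H2-D1, H2-Q7, H2-Q6 and H2-Q10 rose by 3.32, 3.38, 3.15 and 2.85, and their probes and those of H2-K1 and H2-gs10 can cross-hybridise, so that these are uncertain as separate measurements. B2m, the shared light chain, started bright, at 13.58, 13.43 and 13.70 in controls, and rose 4.34-fold (ratios 2.19, 2.34 and 1.82, adjusted p = 0.0311). In p53-/- cells the 10 genes had log2 effects between 0.10 and 0.61, and for each of the 10 the difference between backgrounds was called.

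The other 5 members did not pass. Cd1d1, a class I-like gene that presents lipids, was negative in all 3 replicates (-0.09, -1.89 and -1.10, adjusted p = 0.476), and H2-M3 had 2.65, 0.44 and 0.25 (adjusted p = 0.616). Tapbp, which bridges TAP to class I, had ratios of -0.20, 2.12 and -0.26, and H2-T23 had 0.23, 1.79 and -0.03. Both were raised in replicate B alone. Nlrc5, the transactivator of class I genes, had 0.82, 0.54 and 0.24 (adjusted p = 0.525) and was not well above background in controls.

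Genes induced by interferon did not share this pattern. None of 9 matched members was called, 3 had an unadjusted p under 0.05, and in the limma fit the list had medians of -1.67, 2.09 and -0.19 in replicates A, B and C. Isg15, a ubiquitin-like protein, had log2 ratios of -3.01, 2.48 and -0.96, and Ifit3 had -2.46, 4.20 and 1.11. Bst2 had -0.46, 3.40 and 0.36. The signs thus differed between replicates, and control A stood a median of 2.63 above control B over these 9 genes while the median of control B minus control C was -0.04.

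**Figure D4:**
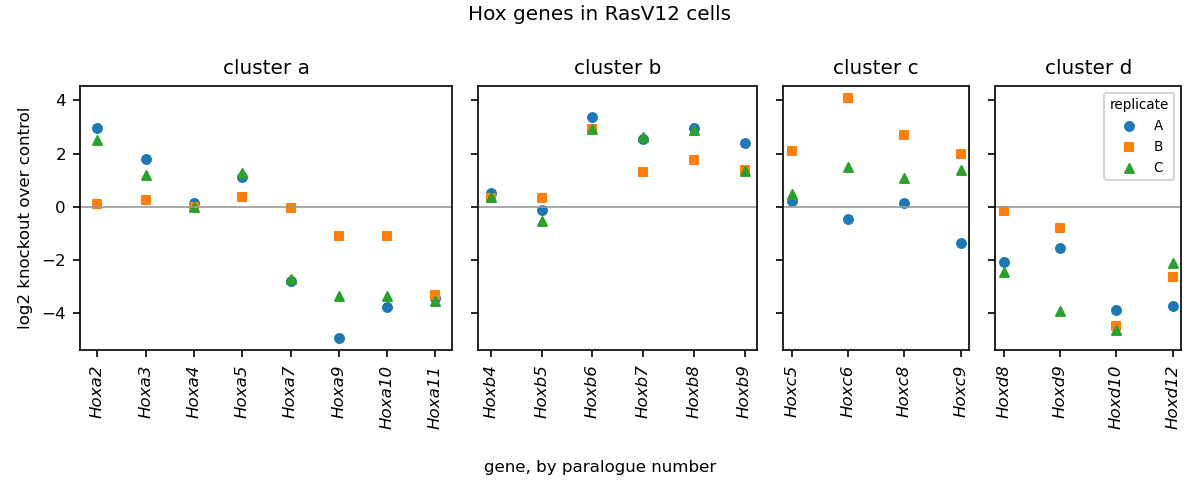
Log2 knockout-over-control ratio (y axis) of the reported Hox genes in Ha-RasV12 cells, ordered by paralogue number within each of the 4 clusters (x axis), with 1 point per replicate. Hoxd10 and Hoxa11 lie below -3 in all 3 replicates, and Hoxb6 and Hoxb8 lie above 1.7.

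Hox genes, whose order along 4 clusters follows their order of use along the body axis, changed in both directions. Of 23 matched genes 2 were called lower and 2 higher, beside 1.72% of all matched genes called. Knockout and control levels did not overlap for 14 of the 23, beside 37.1% of all matched genes. Hoxd10 had log2 signals of 10.09, 11.36 and 11.12 in controls and 6.22, 6.87 and 6.49 in knockouts. It fell 20.1-fold (SE 0.21, adjusted p = 0.0156), the steepest fall among genes named by the rule. Only 1 of the 6 knockout samples was above background, so that the fold depends on the background level. Hoxa11 went from 9.77, 10.91 and 11.12 to 6.32, 7.60 and 7.59 and fell 10.8-fold (adjusted p = 0.0156). Both act in the development of the limb.

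In cluster b the called genes were higher. Hoxb6 was at 6.39, 6.46 and 6.71 in controls and 9.78, 9.37 and 9.62 in knockouts, a rise of 3.07 (SE 0.19, adjusted p = 0.0159). Only 1 of the 6 control samples was above background, and 1 of its 3 probes was called, with probe means from 1.22 to 3.07. Hoxb8 was not well above background in any control and was at least 1.89-fold higher in knockouts (adjusted p = 0.0467). Hoxb7 and Hoxb9, between and beside them, had means of 2.16 and 1.72 and missed the threshold (adjusted p = 0.0913 and 0.108), and Hoxb4 and Hoxb5 had 0.41 and -0.13.

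Replicate B departed from A and C in cluster a. Hoxa9 had ratios of -4.93, -1.08 and -3.37, Hoxa10 had -3.77, -1.12 and -3.37, and Hoxa7 had -2.78, -0.04 and -2.74. None of these was called. Toward the other end of the cluster Hoxa2 had 2.98, 0.10 and 2.51. In cluster c the high replicate was B, with 4.09 for Hoxc6 against -0.46 in A and 1.51 in C. In p53-/- cells no matched Hox gene was called, with a list median of -0.06.

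Of 8 matched chemokines and cytokines 2 were called, both higher, beside 1.72% of all matched genes called. Cxcl12, a chemokine that draws cells bearing CXCR4, had log2 signals of 10.28, 9.76 and 9.97 in controls and 14.45, 13.69 and 13.83 in knockouts. Its replicates lay close together, and it rose 15.9-fold (SE 0.18, adjusted p = 0.0148). Il33, an alarmin of the interleukin-1 family, rose by 3.29 (ratios 4.11, 2.66 and 3.10, adjusted p = 0.0311). The other 6 matched chemokines and cytokines were not called. Ccl2 had 0.35, 2.56 and 3.19, and Ccl7 had 0.09, 4.49 and 2.98, so that both were near 0 in replicate A.

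Igfbp7, a secreted binder of insulin-like growth factors, went from 9.91, 10.63 and 10.48 to 13.74, 13.85 and 13.54 and rose 10.4-fold (SE 0.21, adjusted p = 0.0159). Mmp2, the gelatinase that cleaves type IV collagen, rose 6.82-fold (ratios 3.03, 2.71 and 2.58, adjusted p = 0.0159). The smooth muscle genes Acta2 and Tagln rose by 2.73 (adjusted p = 0.0221) and 2.82 (adjusted p = 0.0293). Acta2 was at 11.43, 12.78 and 12.42 in controls and at 14.40, 15.11 and 15.32 in knockouts. These were the 2 called of 10 matched contractile genes, beside 1.72% of all matched genes called. Myl9 had 3.41, 1.24 and 1.60 (adjusted p = 0.223), and Myh11 and Des stayed within 0.14 of 0 on average. Des was not well above background in either group.

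The extracellular matrix list leaned upward without a call at the brightest probe. Of 20 matched genes 14 were higher in all 3 replicates and 1, Col3a1, lower in all 3 (-2.96, -1.71 and -1.31, adjusted p = 0.14). The median was 1.35 beside 0.23 for all matched genes, 17 had an unadjusted p under 0.05 (2444 of 4414 over all matched genes), and 15 are in the authors' limma table. Fn1, fibronectin, had 1.59, 2.23 and 1.16 (adjusted p = 0.104). Ccn2, a matricellular protein, had 2.63, 1.61 and 1.91 (adjusted p = 0.0597). Fibroblast markers went both ways. Pdgfra had -1.82, 1.83 and 1.25 and Col1a1 had 0.66, 1.51 and 0.12, while S100a4 gave -6.04, -3.26 and -3.26 (adjusted p = 0.0829) and Fap -1.45, -3.30 and -2.47 (adjusted p = 0.102).

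Ucp1, the uncoupling protein of brown fat, had log2 signals of 9.40, 8.62 and 8.87 in controls and 12.59, 12.75 and 12.86 in knockouts. It rose 13.6-fold (SE 0.24, adjusted p = 0.0159), with all 3 probes called and no overlap. Of the adipocyte markers that could be matched, Pparg and Lpl had positive values in all replicates and Fabp4 negative ones, and none of the 3 was called.

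Genes that restrain the cell cycle moved in opposite directions. Cdkn1a, which encodes the CDK inhibitor p21 and is induced by p53 where p53 is present, had log2 signals of 12.35, 11.44 and 11.46 in controls and 10.07, 9.68 and 9.13 in knockouts. It fell 4.35-fold at its brightest probe (SE 0.20, adjusted p = 0.0322), and 4 of its 9 probes were called. Its uncalled probes with signal above background gave -0.68, -0.86 and -0.83. Cdkn1a was the only called member of 6 matched p53 targets, beside 1.72% of all matched genes called. Of the 6, 4 were higher in all 3 replicates, beside 1811 of 4414 matched genes, and the list median was 0.71 beside 0.23. Cdkn1c, an imprinted gene for the related inhibitor p57, rose 4.39-fold (ratios 2.64, 1.69 and 2.08, adjusted p = 0.0458). Peg3, an imprinted zinc finger gene, rose by 3.23 (2.46, 3.20 and 4.03, adjusted p = 0.0349). These were the 2 called of 13 matched imprinted genes, against the same 1.72%. Igf2 had 0.30, 3.62 and 5.63: its control A level was 13.74, near the knockouts, while controls B and C were at 7.28 and 8.62. Mest had 0.40, -3.62 and -2.44.

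Developmental regulators were among both the falls and the rises. Nrn1, a neuronal growth factor with a lipid anchor, fell by 3.12 (SE 0.25, adjusted p = 0.0239), and Boc, a co-receptor for hedgehog proteins, fell 7.23-fold (SE 0.18, adjusted p = 0.0159). Crip2, a LIM domain protein, fell by 2.37 (adjusted p = 0.0207). Sox9, the master factor of cartilage, rose by 1.96 (adjusted p = 0.0425), although its control A level of 9.15 lay above knockout C at 8.60. Arhgap36, an activator of hedgehog targets on the X chromosome, rose by 3.34 (adjusted p = 0.0263). Outside the naming rule, and chosen after its values were seen, LOC68395 had the largest rise of any called gene, 4.60.

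The lists of histones, cholesterol synthesis, glycolysis, and RAS and ERK output held 0 calls at the brightest probe. Over all 4414 matched genes, 2444 had an unadjusted p under 0.05. In all 3 replicates 1811 were higher and 1160 lower, and the shares in these lists stand beside that background. Of 27 matched histone genes, whose near-identical copies can share probes, 22 were lower in all 3 replicates and 0 higher. Their medians were -0.77, -0.997 and -0.54 in replicates A, B and C, beside 0.14, 0.26 and 0.14 for all matched genes, and 17 had an unadjusted p under 0.05 in the limma fit. H3f3a, a replacement histone gene, had -1.48, -0.85 and -0.83. In p53-/- cells the median of the 27 was 0.06.

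Against the same 2444 and 1811 of 4414, of 10 cholesterol synthesis genes 9 were higher in all 3 replicates, among them Cyp51 (1.12, 1.40 and 0.74), and Mvk was lower in all 3. The limma fit gave 7 of the 10 an unadjusted p under 0.05. Of 10 matched glycolysis and lactate genes 5 were higher in all 3 replicates and 0 lower, and 6 had an unadjusted p under 0.05. Hk2, a hexokinase, had 0.69, 0.97 and 0.80 (adjusted p = 0.239). Of 10 RAS and ERK output genes 0 were called and 5 had an unadjusted p under 0.05. Dusp5, an ERK phosphatase, had -1.08, 3.18 and 1.61, and Myc had 0.82, 2.26 and 0.78. Nqo1, a quinone reductase under control of NRF2, had -3.06, -1.63 and -2.54 at its brightest probe and missed the threshold there (adjusted p = 0.0623), while its other 2 probes were called.

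**Figure D5:**
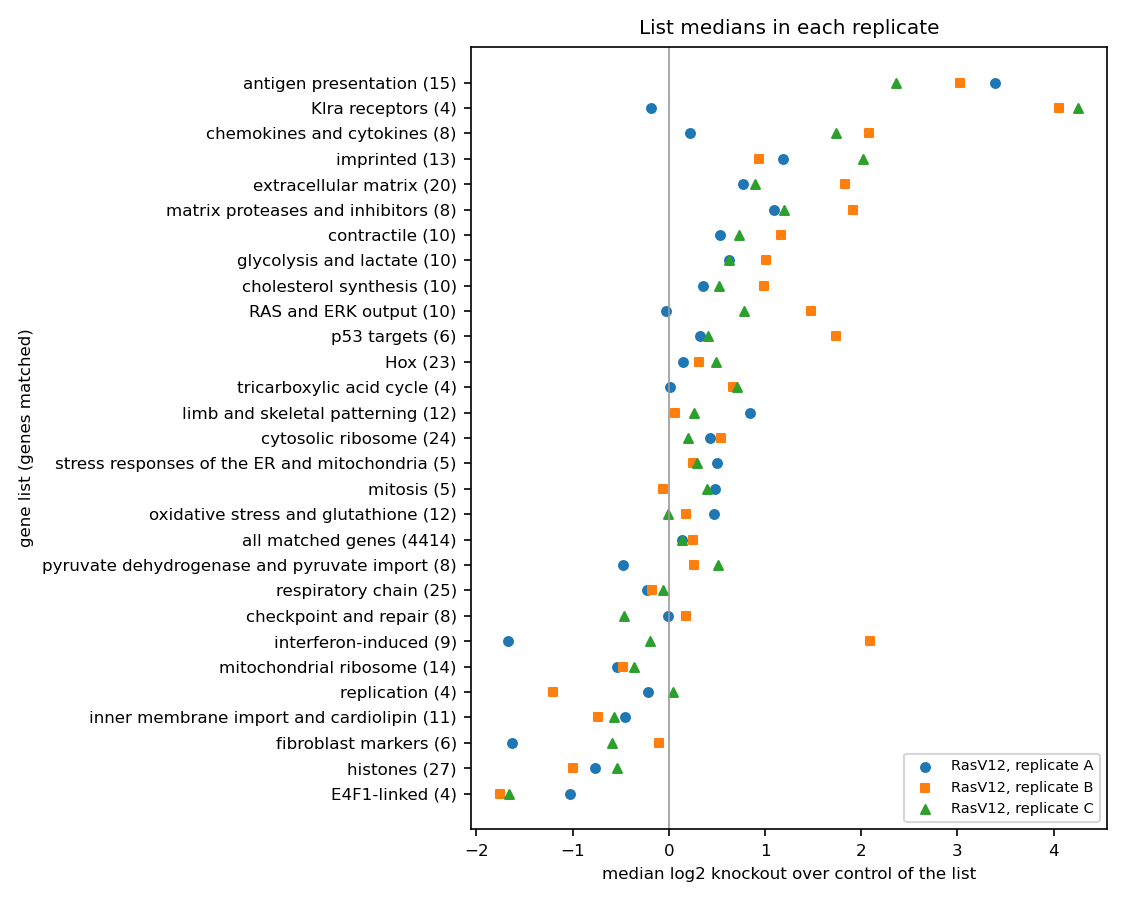
Median log2 knockout-over-control ratio (x axis) of each gene list with at least 4 matched genes (y axis, number matched in brackets) in Ha-RasV12 cells, with 1 point per replicate. Antigen presentation lies at 2.36 to 3.39 in all 3 replicates, while interferon-induced genes run from -1.67 to 2.09 and Klra receptors from -0.19 to 4.25.

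For several large differences the control cultures, not the knockouts, were unequal. These genes are given because their replicates differed most, and were chosen after their values were seen. Klra1, a natural killer receptor gene with near-identical relatives, was at 10.79 in control A and at 6.69 and 6.43 in controls B and C, while the knockouts were at 11.11, 11.30 and 10.90. Control A thus lay with the knockouts, and the ratios were 0.32, 4.61 and 4.47 (adjusted p = 0.353). Gpc3, a cell surface proteoglycan, showed the opposite order, at 5.82 in control A, 10.97 and 10.61 in controls B and C, and 5.75, 7.02 and 5.97 in the knockouts. Klra1 and Gpc3 are in the authors' deposited limma table, with adjusted p of 0.0198 and 0.0293.

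For other genes the knockouts were unequal. Alx1, a homeobox gene of the face, was at 12.11 and 10.68 in knockouts A and C but at 5.99 in knockout B, where the controls were at 6.30, 5.94 and 6.02. Plac8 was at 14.92 and 14.49 in knockouts A and C and at 9.02 in B, against 9.04, 7.51 and 7.89 in controls. Knockout B thus lay with the controls for Alx1 and near them for Plac8. For Cryab, a small heat shock protein, the controls were the unequal group instead, at 15.11 in control A, with the other 5 cultures between 8.87 and 9.71.

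Genes on the X chromosome leaned upward in Ha-RasV12 knockouts, as did those of several autosomes. Of 274 matched X-linked genes 168 were higher in all 3 replicates and 25 lower, with medians of 0.34, 0.57 and 0.70 in A, B and C, against 0.12, 0.22 and 0.09 for 4010 matched genes elsewhere. The 105 matched genes of chromosome 18 had medians of 0.41, 0.74 and 0.42, and the 162 of chromosome 13 had -0.37, -0.33 and -0.36. Because most matched genes were named through the authors' lists, the values were also taken over genes above background that were named through RefSeq transcript accessions alone. There 26 X-linked genes had medians of 0.24, 0.26 and 0.59 against -0.09, 0.20 and -0.01 for 408 others, while 16 genes of chromosome 13 had 0.03, 0.02 and -0.12. The median over the 274 X-linked genes was -0.02 in p53-/- cells. Xist, the RNA that silences an X chromosome, had ratios of 1.08, 2.43 and 0.49 at its brightest probe (adjusted p = 0.378).

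The knockout effect in Ha-RasV12 cells was set against that in p53-/- cells by the limma test of the difference between the 2 effects. That test took 1 spread per probe over both backgrounds. Applied to the Ha-RasV12 effect alone, such a joint spread raised the calls from 280 to 3061 probes, and the p-values of the difference share this limit. The test of the difference called 568 of 132488 probes (0.429%) and 165 of the 4414 matched genes (3.74%). Without pairing by letter it called 137 probes and 38 genes, all 38 among the 165. The data did not show the letters to pair Ha-RasV12 cultures. Each p53-/- knockout lay closest to the control of its own letter, at root mean square distances of 0.31, 0.24 and 0.24. Of the 76 genes called in Ha-RasV12 cells, 65 differed between backgrounds, 28 of them also without the pairing, and 11 did not pass. The 76 were selected by the same Ha-RasV12 ratios that this test uses, so that a high share was built in. The 11 are E4f1, Dnajc19, Ndufs5, Ndufs5-ps, Taz, Zfp945, Ipo8, Psmb6, Dnase1l2 and the clones 3110039M20Rik and A930005H10Rik. A p that misses the threshold does not show that the effects were equal. Of the 76, 10 were also called in p53-/- cells, where 49 matched genes were called in all (1.11%).

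Among the genes named by the rule, the widest gaps were those of Hoxd10 (a difference of -4.44, SE 0.25, adjusted p = 0.000695), Igfbp7 (3.88, SE 0.25, adjusted p = 0.000833) and Ucp1 (3.82, SE 0.28, adjusted p = 0.00105), each with a p53-/- effect within 0.52 of 0. For Dlat the difference of -2.24 (adjusted p = 0.00653) rested on the probe. At the brightest of its 9 probes the p53-/- effect was 0.10, while at the other 8 it ran from -1.54 to -0.95, beside -2.22 to -1.22 for the same probes in Ha-RasV12 cells.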

How the data were processed

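RNA of 24 samples (12 cultures in 2 dyes) was measured on 12 two-colour arrays with 3 probes per transcript accession. The deposited values are linear intensities per channel, which the authors had normalized within arrays before deposit. Limma is named in the submitters' processing notes, and no other upstream step is given there. The authors' deposited limma tables hold log2 ratios, a moderated t score and p-values, and their SAM lists hold a d score and q-values, per the file headers. The deposited log2 ratios equal the mean over 6 arrays (tolerance 0.001, 4702 of 4702 probes). How their p-values treat dye swaps is not stated.

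Here, log2 ratios of the 2 arrays of a replicate were averaged and tested over 3 replicates with limma 3.58.1 in R 4.3.3, with Benjamini-Hochberg adjustment over 132488 probes and a threshold of 0.05. Every adjusted p in the text is from this limma fit unless the authors' table is named. The 5000 random control spots were left out of the tests and gave the background (their 99th percentile per channel). Python 3.11.15 and pandas 2.3.3 made the summaries.

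Probes were named through the deposited tables or RefSeq transcripts (GRCm38.p6): 17198 probes and 4414 genes, 747 of them by RefSeq alone, so naming favours genes the authors listed. A gene was read at its brightest probe. "At least N-fold" takes the background as the level of a group that was not above it.

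The text names E4f1, Trp53 and Hras, the 12 largest rises and falls among called genes with a gene symbol and 1 sign in all replicates, the E4F1-linked genes, up to 6 called members of every list, and further members that give a pathway step. The genes and the 39 lists were chosen with earlier results of these data known. The labels call the replicates biological. The number of arrays limits the precision. The fit was tested on simulated data. Alternatives are given in the closing section. Coordinates of the probes were not used here. Some genes that the rule would name are not reported here.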

Additional observations from a re-analysis of the deposited data

Results flagged for a closer look

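For the genes given here limma's test of the difference called the knockout effect different between Ha-RasV12 and p53-/- cells (adjusted p of 0.05 or less). Values are the Ha-RasV12 effect minus the p53-/- effect on the log2 scale, over 3 replicates each, and 3.74% of matched genes passed this test. The genes given were picked from those called in Ha-RasV12 cells, which favours a difference here. The test paired cultures by replicate letter. Without that pairing 38 of the 165 matched genes passed, and which genes given here are among them is not shown.

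Class I genes had a larger knockout effect in Ha-RasV12 cells, with differences between effects of 3.59 for H2-K1, 3.30 for H2-gs10, 3.16 for H2-Q7 and 3.13 for H2-D1. The peptide supply genes had 3.38 for Tap1, 3.22 for Psmb8 and 2.88 for Psmb9.

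Hox genes differed both ways, by -4.44 for Hoxd10, -3.33 for Hoxa11, 3.58 for Hoxb6 and 3.33 for Hoxb8. Other regulators had -3.64 for Nrn1, -2.90 for Boc, -2.35 for Crip2, 2.13 for Sox9 and 3.48 for Arhgap36.

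Secreted and contractile products had 3.74 for Cxcl12, 3.88 for Igfbp7, 3.34 for Il33, 2.99 for Mmp2, 3.02 for Acta2 and 3.36 for Tagln. The value for Ucp1 was 3.82. The cell cycle inhibitors had -2.07 for Cdkn1a and 2.22 for Cdkn1c, and the imprinted gene Peg3 had 3.65.

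Dlat had -2.24 at its brightest probe, while its other 8 probes were lower in both backgrounds.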

How the results depend on the processing

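Against 280 probes and 76 genes, the count was 4564 and 1271 with the 6 arrays as independent, 3212 and 894 with the replicate as a random block, 3061 and 852 with 1 spread over both backgrounds, and 155 and 49 with the dim quartile left out, which also left fewer probes tested. With controls B and C counted once, an alternative chosen after seeing the data, it was 23 and 7. At an adjusted p of 0.01 it was 0 probes by limma, with 11081 at an unadjusted p under 0.05. The authors' tables held 4703 probes and 1846 genes (limma), 4291 and 1714 (SAM at 1%) and 8601 and 3397 (SAM at 5%). The mean of a gene's probes gave 117 genes. Leaving out 1 replicate gave 0 to 2013 probes and 0 to 481 genes, with 0 without replicate C (7021 probes at an unadjusted p under 0.05). Median centring, loess, the 2-fold minimum and the probe with the smallest p moved no count by over 1.5 times. The cause of these shifts was not tested.

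Without the replicate block 258 probes and 70 genes were called, 49 of them among the 76. Deviations of same-lettered Ha-RasV12 knockout and control cultures correlated at 0.32, -0.056 and 0.49 for A, B and C, so the letters were not shown to pair these cultures. The test between backgrounds called 568 probes, 137 without the replicate block, and 377 to 2252 with 1 Ha-RasV12 replicate left out.

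Called genes had 1 sign in all 3 replicates, so that leaving 1 out could not change it. In the other settings no called gene changed sign. Of the 87 uncalled genes recomputed, those whose mean did, as ranges with 1 replicate left out, were Bst2 (-0.051 to 1.88), Gbp2 (-1.22 to 1.09), Hoxb5 (-0.35 to 0.087), Ifit1 (-1.56 to 0.56), Ifit3 (-0.67 to 2.65), Isg15 (-1.98 to 0.76), Mmp3 (-0.50 to 4.59), Pdgfra (-0.28 to 1.54, and -0.12 with controls B and C counted once), Pdp1 (-0.44 to 0.42), Pmaip1 (-0.27 to 1.99) and Tapbp (-0.23 to 0.96). Signal over background limits 623 of the 4414 matched genes, which were above it in neither group.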
